A study of Mus musculus with 6 samples.

Results

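DNA replication and G1/S genes are the genes that copy the genome in S phase and that let a cell enter it. The 45 genes taken here, from a fixed list of names, cover the MCM2-7 helicase, the factors that license and activate origins, the sliding clamp and its loader, primase and the polymerases, RPA, the enzymes that finish Okazaki fragments and make deoxynucleotides, cyclin E with its kinase, and E2F factors. A gene was read from every array feature, called a probe set, whose platform annotation names that gene and no other, and where several did, the one with the highest mean over the arrays stood for it. All 45 had a probe set, and all 45 were among the 14230 genes tested, of 18193 genes with a probe set. The annotation pairs Tyms with a pseudogene in 1 probe set, which was left out.

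The study compared a Gata-1 knock down with wild type in mouse megakaryocytes, the large bone marrow and fetal liver cells that shed platelets, with 3 Affymetrix arrays a group, lettered A, B and C. In both groups progenitors came from fetal livers at embryonic day 13.5, were cultured to megakaryocytes, and were collected on a gradient of bovine serum albumin before total RNA was taken. GATA1 is the transcription factor that drives the erythroid and megakaryocyte lineages. The sources used here do not give the strain, how the knock down was made, or whether the letters stand for separate cultures, so a p-value is set against a spread between samples that may be technical.

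Gata1 itself read 153.5, 143.3 and 194.7 in knockdown, against 8723.7, 8246.5 and 8495.6 in wild type, a log2 fold change of -5.52 ± 0.12 (SE, adjusted p = 2.71e-09), which is 45.9-fold lower. Its 3 knockdown arrays lie far below its 3 wild-type arrays, as the labels say. The median signal of an array was 111.3 to 137.8 in knockdown and 101.6 to 104.4 in wild type, and the highest of 27 Bacillus subtilis control probe sets read 132 on knockdown B against 60.7 to 82.2 on the other 5 arrays. Other cell types were read from lists of markers. All 7 named megakaryocyte markers were above those controls in both groups, and their summed signal was 68263 to 86336 in knockdown and 106596 to 112922 in wild type, with 5 of 7 lower. Neutrophil markers summed to 2999 to 3101 in knockdown and 11008 to 11387 in wild type (8 of 9 lower), and macrophage markers to 5983 to 6482 in knockdown and 16994 to 17600 in wild type (8 of 8 tested lower, with 2 of 9 within background in knockdown and 1 in wild type). Mast cell and basophil markers summed to 1261 to 1558 in knockdown and 4345 to 4874 in wild type (7 of 9 lower, 5 within background in knockdown and 0 in wild type), and erythroid markers to 8108 to 8312 in knockdown and 22047 to 22441 in wild type (4 of 8 lower and 1 higher). Stem and progenitor markers went the other way, at 20730 to 22081 in knockdown and 8824 to 9079 in wild type (6 of 7 tested higher). These lists move with the groups, and their part in the results that follow was not tested. In such bulk samples a larger share of cycling cells and more RNA per cell cannot be told apart.

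Before S phase, ORC, CDC6 and CDT1 load the ring-shaped MCM2-7 complex at origins, and geminin blocks a second loading. Cyclin E with CDK2, and the factors CDC45, GINS and MCM10, turn the loaded rings into moving helicases, and E2F factors switch on transcription of most of these genes as cells leave G1. Megakaryocytes are known for repeating S phase without dividing, so they use this machinery to become polyploid.

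Because E2F is the textbook regulator of these genes, promoters are shown first, for 5 genes with an E2F motif upstream of the start. Promoters were taken from RefSeq on the GRCm38.p6 build, with 250 bases before and 50 after the start of each gene. They were found for 37 of the 45 genes, 5 of which have several starts, the first by position being used. Mcm4, Gmnn, Gins1, Gins2, Rfc2, Prim2, Pole and Ccne2 are named only. The 250 bases before the start are printed on the gene's strand, with capitals for E2F motifs on either strand. The first 3 genes were called higher in knockdown and Mcm6 and Cdc6 were not called.
Rfc3 (chr5:151651209-151651458, minus strand): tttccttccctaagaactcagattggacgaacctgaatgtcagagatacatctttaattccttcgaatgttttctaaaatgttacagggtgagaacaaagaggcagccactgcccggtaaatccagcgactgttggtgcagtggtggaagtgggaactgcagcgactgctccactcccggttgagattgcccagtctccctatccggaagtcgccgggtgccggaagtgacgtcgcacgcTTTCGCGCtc
Pola1 (chrX:93632156-93632405, minus strand): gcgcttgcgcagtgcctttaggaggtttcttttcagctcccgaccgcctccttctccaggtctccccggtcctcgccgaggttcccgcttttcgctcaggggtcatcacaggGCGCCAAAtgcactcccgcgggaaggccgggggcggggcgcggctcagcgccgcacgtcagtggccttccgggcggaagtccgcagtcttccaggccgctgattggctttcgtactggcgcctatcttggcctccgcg
Mcm5 (chr8:75109259-75109508, plus strand): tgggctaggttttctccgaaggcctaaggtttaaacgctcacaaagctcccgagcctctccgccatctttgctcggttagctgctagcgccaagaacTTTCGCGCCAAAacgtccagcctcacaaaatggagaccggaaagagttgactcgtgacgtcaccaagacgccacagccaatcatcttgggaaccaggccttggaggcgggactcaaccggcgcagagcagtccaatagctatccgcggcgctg
Mcm6 (chr1:128359706-128359955, minus strand): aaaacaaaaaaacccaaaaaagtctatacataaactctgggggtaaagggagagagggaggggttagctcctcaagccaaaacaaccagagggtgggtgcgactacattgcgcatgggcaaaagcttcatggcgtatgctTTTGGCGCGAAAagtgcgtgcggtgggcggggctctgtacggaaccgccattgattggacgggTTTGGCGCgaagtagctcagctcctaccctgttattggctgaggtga
Cdc6 (chr11:98907901-98908150, plus strand): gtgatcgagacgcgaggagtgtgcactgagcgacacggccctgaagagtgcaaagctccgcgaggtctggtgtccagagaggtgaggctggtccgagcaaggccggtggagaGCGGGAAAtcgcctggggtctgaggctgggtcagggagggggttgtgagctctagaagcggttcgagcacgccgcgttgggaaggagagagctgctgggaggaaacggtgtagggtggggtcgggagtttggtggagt

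The E2F motif was searched as TTTCCCGC, TTTCGCGC, TTTGCCGC or TTTGGCGC on both strands of the 300 bases. In Mcm5 a pair of motifs on opposite strands overlaps, which makes the longer capital run, and Mcm6 holds such an overlap and 1 more motif nearer the start. At least 1 motif was found in 12 of the 37 promoters (32.4%), against 3.75% of the 11460 promoters of tested genes and 2.34% of all 27025. The share was 33.3% of the 21 promoters of genes called higher in knockdown and 31.2% of the 16 of genes not called. The other genes with the motif were Mcm3, Cdt1, Cdk2 and E2f2 among those called higher, and Orc1, Pold1 and Cdc25a among those not called. The CCAAT box, searched as CCAAT on both strands, was in 62.2% of the 37 promoters and 37.9% of those of tested genes. It was in 76.2% of the 21 of genes called higher and 43.8% of the 16 of genes not called. Over all genes called higher the share was 36.7%. The difference between the 21 and the 16 was not tested. The GATA motif, searched as AGATAA or TGATAA on both strands, was in 1 of the 37 (2.7%), that of Cdc45, and in 11.0% of those of tested genes. The CHR motif TTTGAA, on both strands, was in 8.11% of the 37 and in 12.4% of those of tested genes. A match is a string of letters and says nothing here about binding.

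Of the 45 genes, 25 (55.6%) were called higher in knockdown and 0 lower, at an adjusted p below 0.05 in limma with Benjamini-Hochberg adjustment over all probe sets. Over all genes tested, 18.3% were called higher and 17.1% lower. The median log2 fold change of the 45 was 0.26, against 0.03 over all genes tested. Of the 45, 38 were positive, where 7569 of the 14230 genes tested were. At an unadjusted p below 0.05 in the same fit the counts were 27 higher and 0 lower. All genes were not counted at that threshold, so these counts have no share to stand against. The changes were modest, with 7 of the 45 (15.6%) called higher by 1.5-fold or more, Cdt1, E2f2, Rfc3, Orc6, Rpa2, Pola1 and Mcm7, where 7.48% of all genes were. In 31 genes (68.9%) all 3 knockdown signals as deposited lay above all 3 wild-type signals, and in 0 all lay below, where 29.1% of all genes lay above and 20.4% below. After normalization 26 genes (57.8%), the 25 called among them, lay above and 0 below, where 24.9% of all genes lay above and 22.8% below. Signals per array and remarks on overlap below are of values as deposited, and Cdc45, Gins1, Rfc1, Pold1 and Cdc25a overlapped after normalization. The 20 genes not called had a median standard error of 0.112 on the log2 scale, against 0.0754 for the 25 called. Of these 20, 13 were positive, where 7569 of the 14230 genes tested were. As deposited, 6 of the 20 lay above without overlap, where 29.1% of all genes did.

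**Figure D1:**
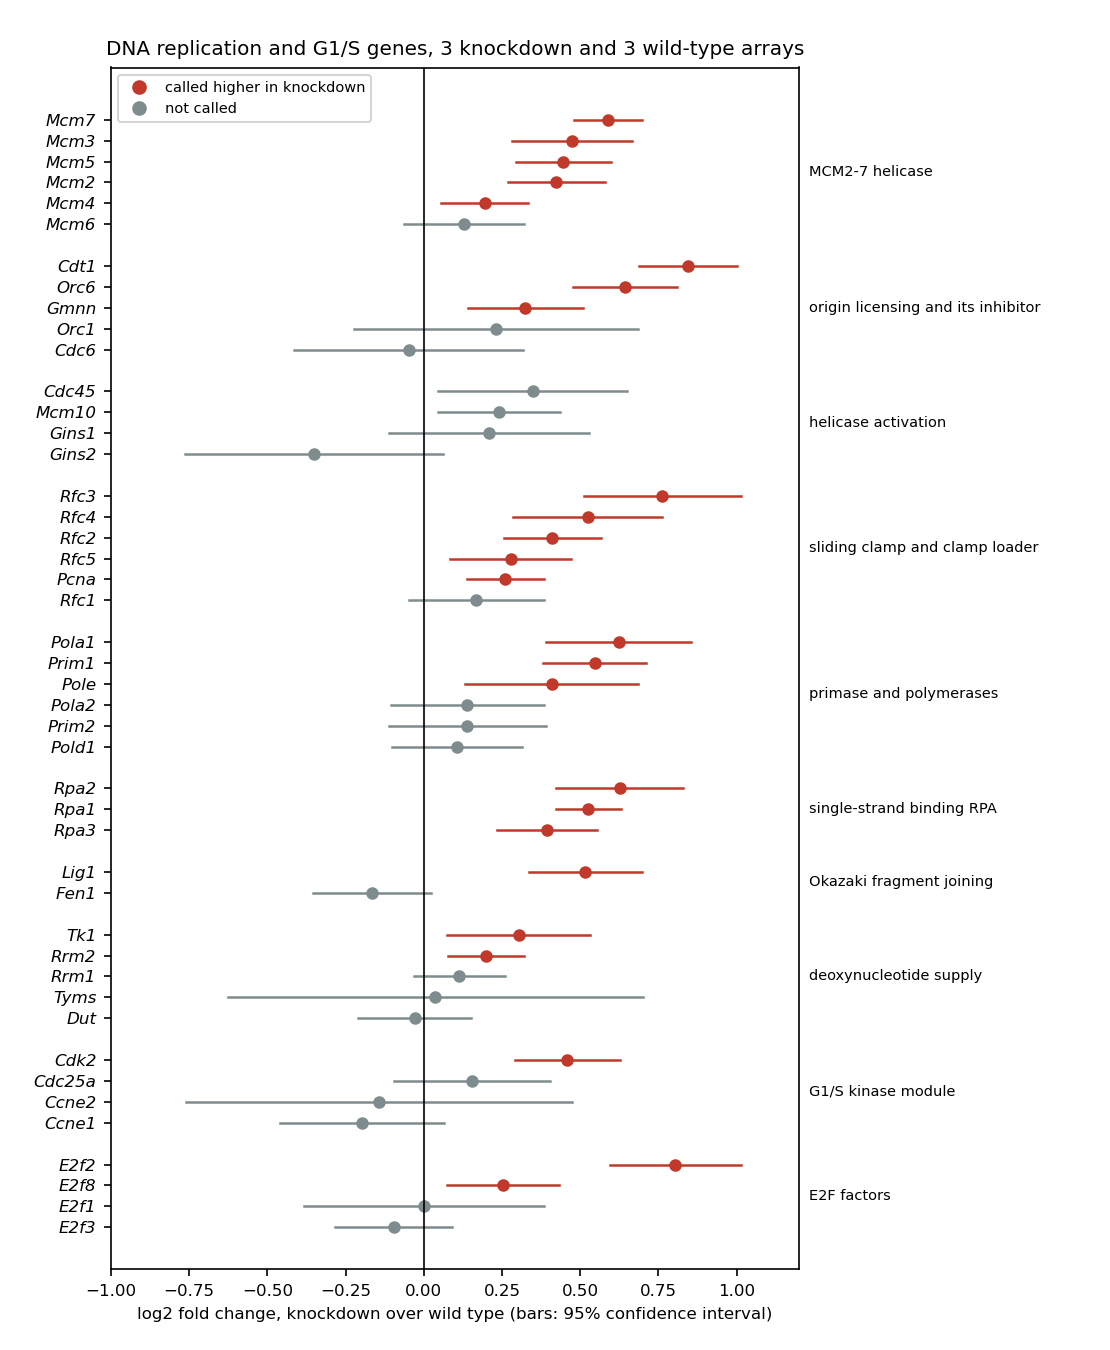
Log2 fold change of knockdown over wild type for each of the 45 genes (x axis, normalized log2 scale; bars, 95% confidence interval of the limma fit on 3 arrays a group), ordered by role down the page. Called genes (red) reach from 0.19 for Mcm4 to 0.84 for Cdt1 and 0 genes are called lower; Mcm4 and Rrm2 turn negative, uncalled, when each array is centred on its median.

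The size of the count depends on how arrays are put on one scale. With each array centred on its median in place of quantile normalization, 9 of the 45 genes were called higher and 1, Fen1, lower, against 8.36% of all genes higher and 20.8% lower. With the values as deposited, 25 were called higher and 0 lower, against 21.1% of all genes higher and 16.3% lower. Of the 25 called after quantile normalization 23 were among them, as Mcm4 and Rrm2 lost the call and Mcm10 and Cdc45 gained it. These scalings move all genes together: the median log2 fold change of all genes was 0.12 as deposited and -0.08 with median centring. The median of the 45 lay 0.23 above that of all genes after quantile normalization and 0.18 above it in both other scalings. The 9 genes called in every setting tried were Mcm7, Orc6, Cdt1, Rfc3, Pola1, Prim1, Rpa2, Lig1 and E2f2, with adjusted p up to 0.0446.

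**Figure D2:**
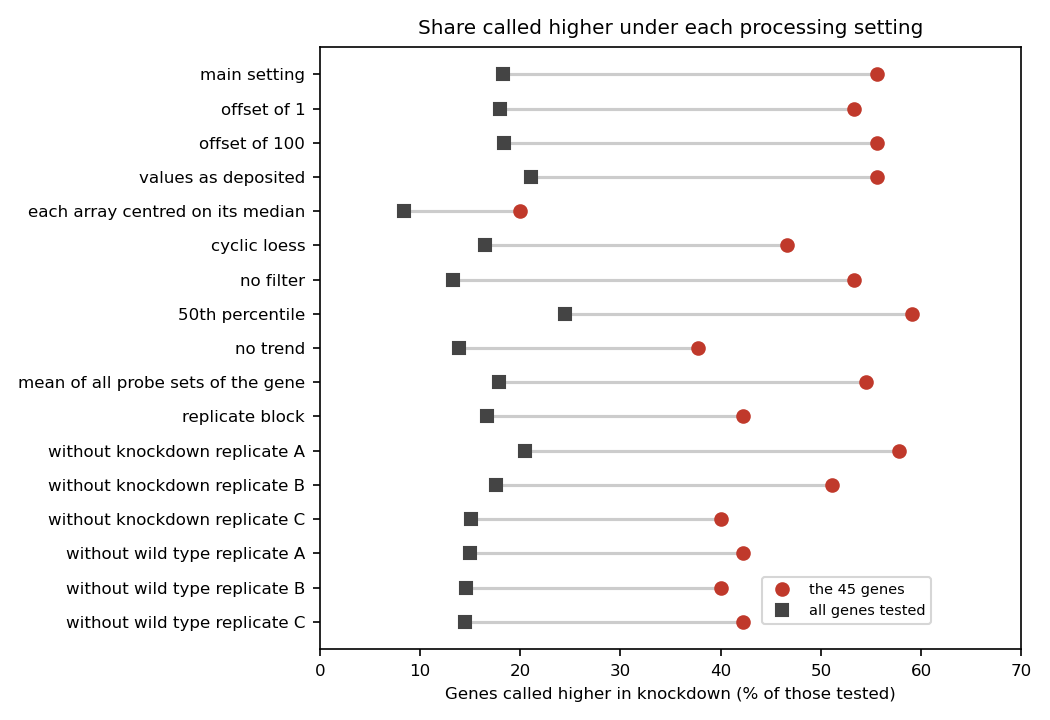
Share of genes called higher in knockdown (x axis, percent of those tested) among the 45 genes (red circles) and among all genes tested (dark squares), for the main setting and 16 alternatives. The share of the 45 is 55.6% in the main setting and 20.0% with each array centred on its median, where that of all genes is 8.36%.

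All 3 knockdown arrays stood on the same side. The median deviation of the 45 genes from their own means over the 6 arrays was 0.16, 0.15 and 0.20 on the log2 scale in knockdown A, B and C, against -0.13, -0.17 and -0.14 in wild type A, B and C. Over all genes tested the same medians lay between 0.00 and 0.04 in knockdown and at 0.00 in wild type.

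**Figure D3:**
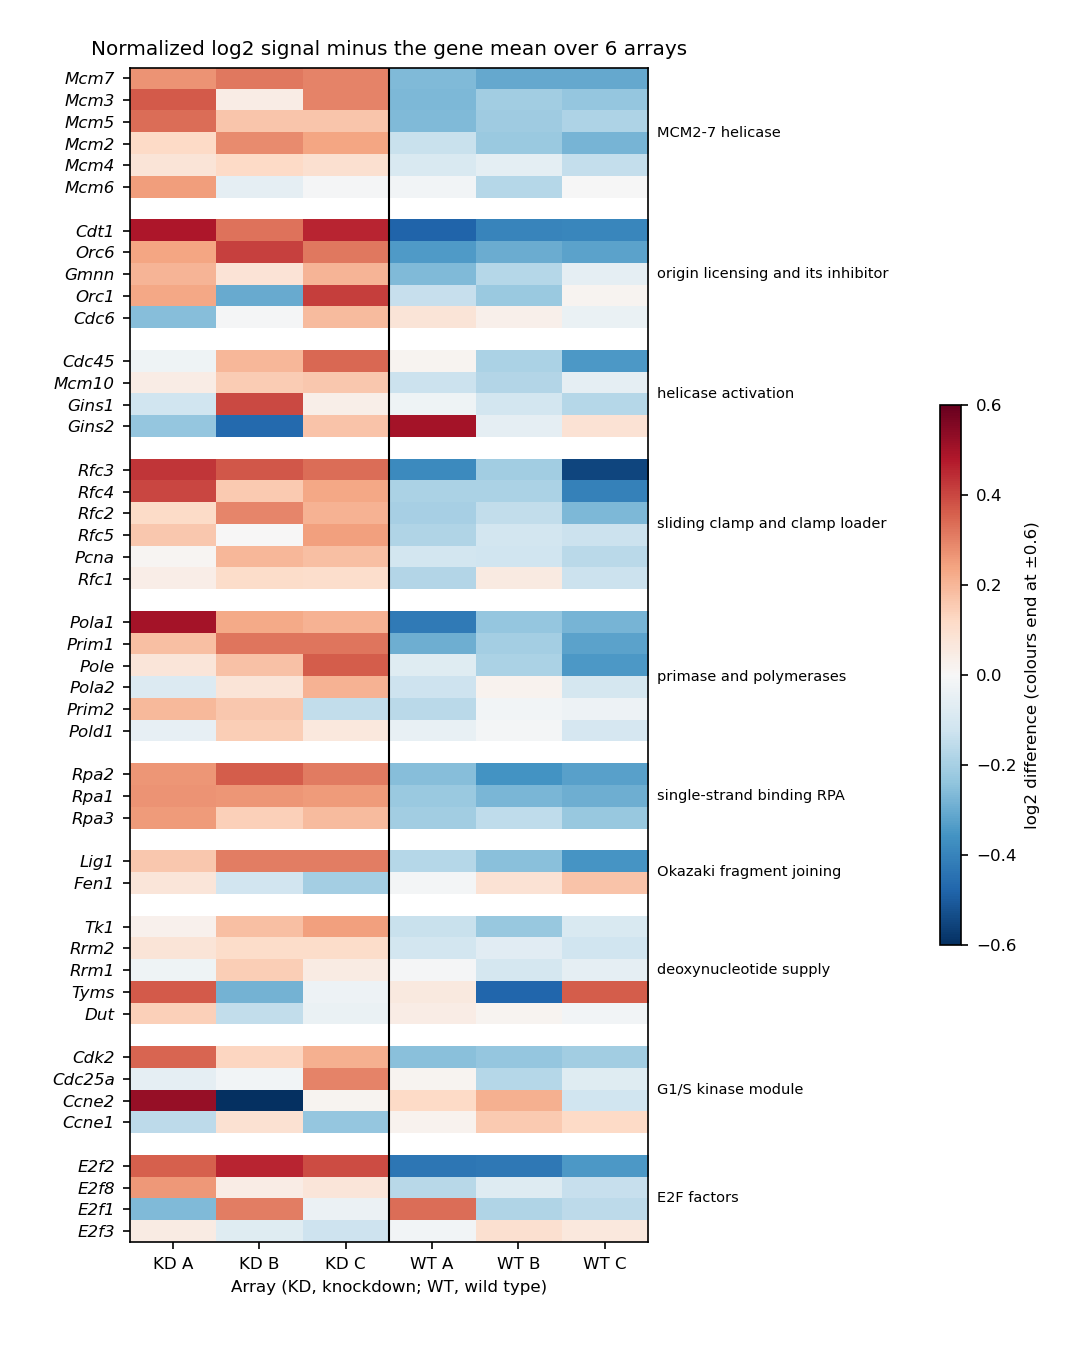
Normalized log2 signal of each of the 45 genes on each array minus its mean over 6 arrays (colour), with knockdown arrays left of the line and wild-type arrays right of it, and genes ordered by role. MCM2-7, RPA and the clamp loader are red on most knockdown arrays, while Tyms, Ccne2, Gins2 and E2f1 have red and blue arrays in both groups or within knockdown.

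The MCM2-7 ring, the core of the replicative helicase, was higher in 5 of its 6 subunits, with a median log2 fold change of 0.43. This count and those by role below stand against 18.3% of all genes tested called higher and 17.1% lower. Mcm7 read 4915.3, 5053.4 and 5064.5 in knockdown, against 3597.6, 3472.2 and 3492.6 in wild type, a log2 fold change of 0.59 ± 0.05 (SE, adjusted p = 9.97e-06). Mcm3 read 2664.7, 2061.1 and 2500.3 in knockdown, against 1732.5, 1811.7 and 1782.2 in wild type, a log2 fold change of 0.47 ± 0.09 (SE, adjusted p = 0.00193). Mcm5 read 2828.6, 2448.9 and 2475.5 in knockdown, against 1893.8, 1957.4 and 1999.3 in wild type, a log2 fold change of 0.45 ± 0.07 (SE, adjusted p = 0.000644). The knockdown arrays of these subunits are all above the wild-type arrays, and those of Mcm7 differ least among themselves. Mcm2 and Mcm4 were called at log2 fold changes of 0.42 and 0.19. Mcm6 read 3976.5, 3127.4 and 3326.6 in knockdown, against 3435.6, 3078.6 and 3484.7 in wild type, a log2 fold change of 0.13 ± 0.09 (SE, adjusted p = 0.315). Its high knockdown value is array A alone, and the groups overlap. The call of Mcm4 was lost on leaving out knockdown B, knockdown C or any 1 wild-type array, with adjusted p of 0.062 to 0.164, and its log2 fold change was -0.041 with median centring. In all, Mcm4 lost the call in 11 of 16 alternatives, also with values as deposited (adjusted p = 0.0845) and cyclic loess (adjusted p = 0.134). With that scaling Mcm7 alone of the 6 was called.

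Among the genes that license origins, the loader Cdt1 and the ORC subunit Orc6 rose, and so did Gmnn, which encodes the CDT1 inhibitor geminin. Cdt1 read 2429.1, 2116.6 and 2369.6 in knockdown, against 1243.3, 1315.6 and 1323.1 in wild type, a log2 fold change of 0.84 ± 0.07 (SE, adjusted p = 1.07e-05), or 1.8-fold. Orc6 read 1501.0, 1634.4 and 1568.5 in knockdown, against 974.2, 1006.7 and 980.3 in wild type, a log2 fold change of 0.64 ± 0.07 (SE, adjusted p = 0.000102). In both genes the lowest knockdown array is well above the highest wild-type array. Gmnn read 1394.5, 1242.4 and 1376.4 in knockdown, against 976.2, 1047.9 and 1134.7 in wild type, a log2 fold change of 0.32 ± 0.08 (SE, adjusted p = 0.0131). Its groups are closer, and the call was lost without knockdown C, wild type A or wild type B, with adjusted p of 0.051 to 0.066, and with median centring. Cdc6, which works with CDT1 to load MCM2-7, read 170.0, 229.8 and 249.2 in knockdown, against 205.7, 201.8 and 186.4 in wild type, a log2 fold change of -0.05 ± 0.16 (SE, adjusted p = 0.866). Its 3 knockdown values span the wild-type values. Orc1, an ATP-binding ORC subunit, was not called at 0.23 with a 95% interval of -0.22 to 0.68.

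The factors that activate the loaded helicase had 0 of 4 called in the main setting, where 18.3% of all genes were higher. With values as deposited 2 of 4 were called higher, where 21.1% of all genes were, and with median centring or cyclic loess 0 of 4. At an unadjusted p below 0.05 in the main setting, 2 were higher, Mcm10 and Cdc45, and 0 lower, with no share of all genes counted at that threshold. Mcm10, which starts the unwinding, read 796.1, 833.7 and 851.0 in knockdown, against 669.2, 646.2 and 697.5 in wild type, a log2 fold change of 0.24 ± 0.09 (SE, adjusted p = 0.0637). Cdc45, a subunit of the active helicase, read 489.8, 563.7 and 625.9 in knockdown, against 466.4, 403.5 and 349.7 in wild type, a log2 fold change of 0.35 ± 0.14 (SE, adjusted p = 0.0824). In both genes every knockdown signal is above every wild-type signal, by a small gap that normalization closes in Cdc45. Both were called without knockdown A, Mcm10 at a log2 fold change of 0.28 with adjusted p = 0.0305 and Cdc45 at a log2 fold change of 0.45 with adjusted p = 0.0249. Without any other single array neither was called, with adjusted p of 0.10 to 0.20 for Mcm10 and 0.06 to 0.28 for Cdc45. With values as deposited both were called, Mcm10 at 0.29 with adjusted p = 0.0199 and Cdc45 at 0.43 with adjusted p = 0.028. Mcm10 was also called with the filter at the 50th percentile, at adjusted p = 0.0463. The other probe set of Cdc45 was not called, at -0.05. The GINS subunits Gins1 and Gins2 stood at 0.21 and -0.35 with 95% intervals of -0.11 to 0.53 and -0.76 to 0.06.

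The sliding clamp and its loader were higher in 5 of 6 genes, with a median of 0.34. In all 6 the knockdown arrays lay above the wild-type arrays as deposited, where 29.1% of all genes did. The loader, replication factor C, opens the PCNA ring and closes it around DNA. Its small subunit Rfc3 read 765.4, 714.8 and 704.1 in knockdown, against 395.6, 454.3 and 341.2 in wild type, a log2 fold change of 0.76 ± 0.11 (SE, adjusted p = 0.000511), or 1.7-fold. Rfc4 read 897.7, 739.2 and 790.4 in knockdown, against 559.8, 561.1 and 467.5 in wild type, a log2 fold change of 0.52 ± 0.11 (SE, adjusted p = 0.00385). Rfc2 read 2176.4, 2394.6 and 2305.1 in knockdown, against 1768.1, 1841.1 and 1680.4 in wild type, a log2 fold change of 0.41 ± 0.07 (SE, adjusted p = 0.00126). In these small subunits each knockdown array exceeds each wild-type array. Pcna, the clamp itself, and Rfc5 were called at 0.26 and 0.28. Rfc1, the large loader subunit, read 701.4, 711.8 and 717.7 in knockdown, against 563.8, 669.9 and 575.5 in wild type, a log2 fold change of 0.17 ± 0.10 (SE, adjusted p = 0.24). Wild type B is its high wild-type array and lies just below the knockdown arrays, and above knockdown A after normalization. The call of Rfc5 was lost without knockdown C or any 1 wild-type array, with adjusted p of 0.083 to 0.119, and with median centring the calls of Pcna, Rfc2, Rfc4 and Rfc5 were lost.

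Primase and the polymerases were higher in 3 of 6 genes (50%), with a median of 0.27, where 18.3% of all genes were higher. Pola1, the catalytic subunit of polymerase alpha, which extends the RNA primer, read 1280.1, 1029.6 and 1029.4 in knockdown, against 636.3, 734.7 and 701.3 in wild type, a log2 fold change of 0.62 ± 0.10 (SE, adjusted p = 0.00112). Prim1, the primase subunit that makes the primer, read 1692.4, 1817.3 and 1852.0 in knockdown, against 1217.6, 1287.2 and 1179.3 in wild type, a log2 fold change of 0.55 ± 0.07 (SE, adjusted p = 0.00028). Pole, the catalytic subunit of the leading-strand polymerase epsilon, read 491.6, 519.8 and 595.1 in knockdown, against 408.5, 376.7 and 327.9 in wild type, a log2 fold change of 0.41 ± 0.12 (SE, adjusted p = 0.0302). None of these genes has overlapping groups, and Pole has the largest standard error of the 3. The call of Pole was lost without knockdown C, wild type B or wild type C, with adjusted p of 0.084 to 0.131, and with median centring. Prim2, the large primase subunit, read 832.7, 797.7 and 640.0 in knockdown, against 613.5, 683.7 and 669.4 in wild type, a log2 fold change of 0.14 ± 0.11 (SE, adjusted p = 0.413). Knockdown C lies within the wild-type range there. Pola2, the second subunit of polymerase alpha, and Pold1, the catalytic subunit of polymerase delta, were not called at 0.14 and 0.11.

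All 3 subunits of RPA, the complex that coats single-stranded DNA at forks, were higher, with a median of 0.53. The middle subunit Rpa2 read 779.1, 814.2 and 793.4 in knockdown, against 500.9, 468.0 and 469.4 in wild type, a log2 fold change of 0.63 ± 0.09 (SE, adjusted p = 0.00045). The large subunit Rpa1 read 6191.2, 6133.0 and 6251.2 in knockdown, against 4699.9, 4506.1 and 4509.5 in wild type, a log2 fold change of 0.53 ± 0.05 (SE, adjusted p = 1.55e-05). The small subunit Rpa3 read 1509.6, 1348.7 and 1421.0 in knockdown, against 1064.7, 1105.2 and 1041.3 in wild type, a log2 fold change of 0.39 ± 0.07 (SE, adjusted p = 0.00206). In each the knockdown arrays stand close together and above the wild-type arrays. Rpa1 and Rpa3 lost the call with median centring, at adjusted p of 0.0748 and 0.243.

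At the lagging strand, FEN1 trims the flap of an Okazaki fragment and LIG1 seals the nick. Of these 2 genes 1 was called higher, where 18.3% of all genes were. Lig1 read 1515.7, 1619.7 and 1649.9 in knockdown, against 1186.6, 1110.3 and 1022.5 in wild type, a log2 fold change of 0.52 ± 0.08 (SE, adjusted p = 0.000731). Fen1 read 2117.7, 1803.9 and 1735.4 in knockdown, against 2031.9, 2171.2 and 2308.5 in wild type, a log2 fold change of -0.17 ± 0.08 (SE, adjusted p = 0.18). The knockdown arrays of Lig1 lie above its wild-type arrays, whereas knockdown A of Fen1 lies among its wild-type arrays and knockdown B and C below them. Without knockdown A, Fen1 was called lower at a log2 fold change of -0.24 with adjusted p = 0.0217, and it was also called lower with median centring, at a log2 fold change of -0.40 with adjusted p = 0.0356. Its other tested probe set had a log2 fold change of 0.09 and was not called.

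Of 5 genes that supply deoxynucleotides, 2 (40%) were higher, where 18.3% of all genes were. The median was 0.11, or -0.053 with median centring. Tk1, the cytosolic thymidine kinase, read 592.1, 638.4 and 674.7 in knockdown, against 489.0, 460.3 and 497.9 in wild type, a log2 fold change of 0.30 ± 0.10 (SE, adjusted p = 0.0494). Rrm2, the small subunit of ribonucleotide reductase, read 2799.1, 2750.2 and 2832.4 in knockdown, against 2515.1, 2569.4 and 2500.6 in wild type, a log2 fold change of 0.20 ± 0.05 (SE, adjusted p = 0.0187). The groups do not overlap in these genes, but both changes are small. The call of Tk1 was lost on leaving out any 1 array but knockdown A, with adjusted p of 0.082 to 0.171, and that of Rrm2 without knockdown C or any 1 wild-type array, with adjusted p of 0.054 to 0.095. With median centring neither was called and the log2 fold change of Rrm2 was -0.053. Of 16 alternatives, Tk1 lost the call in 11 and Rrm2 in 9. For Rrm2 these took in values as deposited (adjusted p = 0.0835) and cyclic loess (adjusted p = 0.105). Rrm1, the large reductase subunit, read 2564.1, 2789.1 and 2682.0 in knockdown, against 2682.5, 2483.3 and 2596.1 in wild type, a log2 fold change of 0.11 ± 0.07 (SE, adjusted p = 0.236). Its groups overlap, with wild type A and C both above knockdown A. Dut, which removes dUTP, stood at -0.03. Tyms, thymidylate synthase, was near background, above the control probe sets on 2 of 3 arrays in each group, and no change could be read from it (95% interval -0.63 to 0.70).

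In the G1/S kinase module 1 of 4 genes (25%) was higher, near the 18.3% of all genes that were. The median was 0.01, and -0.08 with median centring. Cdk2, the kinase that cyclin E activates, read 1969.5, 1646.0 and 1775.5 in knockdown, against 1293.2, 1305.4 and 1326.4 in wild type, a log2 fold change of 0.46 ± 0.08 (SE, adjusted p = 0.00103). Its 3 wild-type arrays are nearly equal and all below the knockdown arrays. Cdc25a, the phosphatase that frees CDK2 from inhibition, read 781.9, 784.7 and 983.3 in knockdown, against 778.5, 684.9 and 725.0 in wild type, a log2 fold change of 0.15 ± 0.11 (SE, adjusted p = 0.357). Knockdown C is the high array there, with A and B just above the highest wild-type array as deposited. The cyclin E genes Ccne1 and Ccne2 were not called at -0.20 and -0.14, with 95% intervals of -0.46 to 0.07 and -0.76 to 0.48. The call of Cdk2 was lost with median centring, at adjusted p = 0.182, and when its probe sets were averaged, at adjusted p = 0.223. That average takes in a probe set above the control probe sets on 0 arrays, which was not tested by itself.

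Of 4 E2F genes, the activator E2f2 and the repressor E2f8 were higher (50%, where 18.3% of all genes were). The median was 0.13, or -0.04 with median centring. E2f2 read 750.6, 788.5 and 757.7 in knockdown, against 393.5, 395.3 and 414.8 in wild type, a log2 fold change of 0.80 ± 0.09 (SE, adjusted p = 0.000107), or 1.75-fold. E2f8 read 1611.9, 1356.5 and 1412.2 in knockdown, against 1191.7, 1264.4 and 1201.6 in wild type, a log2 fold change of 0.25 ± 0.08 (SE, adjusted p = 0.0368). Both have groups that do not overlap, with a gap in E2f2 that is much larger than the spread within either group. E2f8 lost the call without knockdown A, knockdown C or any 1 wild-type array, with adjusted p of 0.057 to 0.124, and with median centring. The activator E2f3 read 998.7, 892.5 and 873.3 in knockdown, against 921.8, 1001.4 and 970.4 in wild type, a log2 fold change of -0.10 ± 0.08 (SE, adjusted p = 0.449). Its groups overlap through knockdown A. E2f1, the first described activator, had a log2 fold change of 0.00 with a 95% interval of -0.38 to 0.39.

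A gene's probe sets did not always give the same call. The 45 genes have 99 probe sets, of which 91 were tested, and 40 were called higher, 0 lower and 51 not called, where 16.0% of all 31526 probe sets tested were called higher and 14.3% lower. Among the 32 genes tested with more than 1, 5 had every probe set called higher and 0 had calls in opposite directions. For Rfc1, Pold1, Rrm1 and Cdc25a the probe set that stood for the gene was not called while another was called higher, at log2 fold changes of 0.76, 0.49, 0.31 and 0.52. For Mcm4, Prim1, Rfc4, E2f2 and E2f8 the other tested probe set was not called, at 0.09, 0.09, 0.37, 0.29 and 0.57. Neither of the other probe sets of Rfc2 (0.18 and 0.16) or of Rrm2 (0.21 and 0.15) was called.

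**Figure D4:**
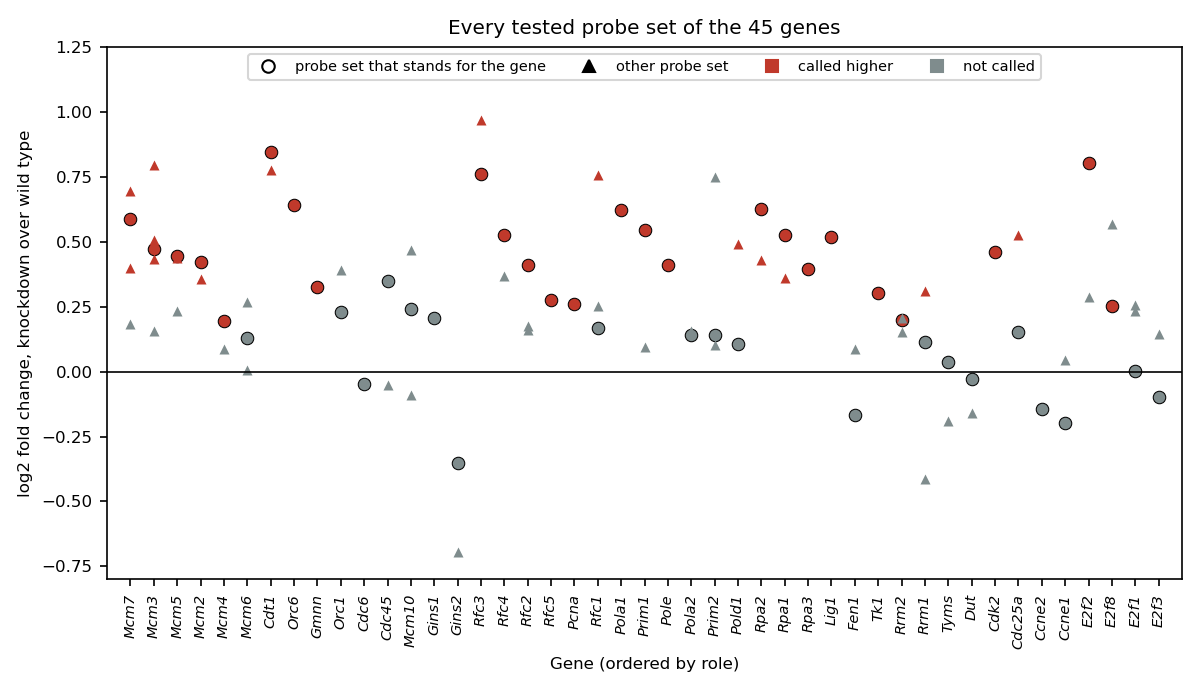
Log2 fold change of knockdown over wild type (y axis) of each of the 91 tested probe sets, by gene along the x axis in order of role; circles stand for the gene, triangles are its other probe sets, and red marks a call of higher in knockdown. The 40 called probe sets all lie above 0, and Rfc1, Pold1, Rrm1 and Cdc25a have a red triangle beside a grey circle.

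Genes that work beside these were read from lists. The counts below stand against 18.3% of all genes tested called higher and 17.1% lower. With median centring those shares were 8.36% and 20.8%. Of 30 other fork and origin genes, 11 (36.7%) were higher and 1 lower, with a median log2 fold change of 0.27. Topbp1, which brings CDC45 to origins and activates ATR, read 2426.7, 1799.1 and 2293.6 in knockdown, against 1179.6, 1299.9 and 1234.3 in wild type, a log2 fold change of 0.81 ± 0.10 (SE, adjusted p = 0.000183). Tipin, of the fork protection complex, read 2523.8, 2358.1 and 2447.2 in knockdown, against 1382.4, 1679.2 and 1616.8 in wild type, a log2 fold change of 0.68 ± 0.08 (SE, adjusted p = 0.0001). Both have knockdown arrays well above the wild-type arrays, while Gins4, another GINS subunit, named after its value was seen, was the 1 lower at -0.28. Of 8 tested genes of chromatin assembly behind the fork, 5 were higher and 0 lower, with a median of 0.36. The maintenance methyltransferase Dnmt1 and the histone chaperone Asf1b had the largest changes, 0.47 and 0.46. With median centring 5 of the 30 fork and origin genes were higher and 1 lower, and 0 of the 8 chromatin genes were called, Dnmt1 at adjusted p = 0.126 and Asf1b at 0.108.

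Of 14 other nucleotide synthesis genes, 4 (28.6%) were higher and 2 (14.3%) lower, where 18.3% and 17.1% of all genes were. Samhd1, which breaks down deoxynucleotides, read 1158.4, 1419.1 and 1175.4 in knockdown, against 4013.6, 4002.2 and 4007.2 in wild type, a log2 fold change of -1.62 ± 0.09 (SE, adjusted p = 6.11e-07), or 3.08-fold lower. Paics, an enzyme of purine synthesis, read 4978.6, 5488.2 and 5945.0 in knockdown, against 3438.1, 3312.6 and 3113.6 in wild type, a log2 fold change of 0.80 ± 0.07 (SE, adjusted p = 1.45e-05). The groups are far apart in both genes, in opposite directions. The other gene called lower, named after its value was seen, was the deoxycytidine kinase Dck at -0.55. With median centring 2 of the 14 were higher and 2 lower.

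Of 18 partners and inhibitors of CDK2 and genes that turn over cyclin E and CDT1, 7 (38.9%) were higher and 3 (16.7%) lower. Over all genes tested 18.3% were higher and 17.1% lower. Cdkn1b, which encodes the CDK inhibitor p27, read 514.1, 317.1 and 375.9 in knockdown, against 757.0, 998.7 and 719.1 in wild type, a log2 fold change of -1.08 ± 0.18 (SE, adjusted p = 0.00104), or 2.11-fold lower. Dtl, the receptor of the ubiquitin ligase that destroys CDT1 in S phase, read 615.4, 795.1 and 652.8 in knockdown, against 311.3, 291.1 and 288.7 in wild type, a log2 fold change of 1.03 ± 0.12 (SE, adjusted p = 0.000135), or 2.04-fold higher. No array overlaps between groups in either gene, but averaged over its probe sets Cdkn1b had a log2 fold change of -0.52 with adjusted p = 0.0556. With median centring 3 of the 18 were higher and 4 lower, where 8.36% of all genes were higher and 20.8% lower. Named after their values were seen, the other 2 lower were the inhibitor Cdkn1c at -0.94 and Cdk7, of the kinase that activates CDK2, at -0.46. The CDK inhibitors did not all fall. Cdkn1a, also picked out after its value was seen, was called higher at 0.88 with adjusted p = 1.02e-06.

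Of 14 other genes of the E2F, RB and MuvB group, which restrain or time E2F transcription, 4 (28.6%) were higher and 1 (7.14%) lower. The shares over all genes were 18.3% and 17.1%. E2f4, a mostly repressive E2F, read 948.9, 1131.9 and 926.2 in knockdown, against 569.5, 573.6 and 513.2 in wild type, a log2 fold change of 0.77 ± 0.11 (SE, adjusted p = 0.000326). Its knockdown arrays all exceed its wild-type arrays. E2f5 had the largest fitted change, a log2 fold change of 1.97 ± 0.61 (SE, adjusted p = 0.0327), but read 237.8, 2057.9 and 1245.1 in knockdown, against 176.6, 137.3 and 256.8 in wild type. Knockdown A of E2f5, unlike B and C, lies within its wild-type range. The call on this probe set was lost without any 1 wild-type array, at adjusted p of 0.051 to 0.107. Without knockdown B or knockdown C, a different probe set of E2f5 had the highest mean and stood for the gene. The gene was then not called, at 0.36 with adjusted p = 0.103 and 0.30 with adjusted p = 0.233. Those fits do not show what the first probe set does without either array. The gene called lower, named after its value was seen, was the E2F partner Tfdp2 at -0.31. With median centring 2 of the 14 were higher and 1 lower. E2f5, there too read from a different probe set, was not called, at 0.20.

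Of 12 tested genes of the S-phase checkpoint and fork repair, 3 (25%) were higher and 1 (8.33%) lower, where 18.3% and 17.1% of all genes were. The largest rises were those of Brca2, which protects stalled forks, and Rad1, of the checkpoint clamp, at 0.53 and 0.52. The 1 lower, named after its value was seen, was Rad9a, another part of that clamp, at -0.45. Mitosis genes, which act after S phase, were higher in 11 of 15 tested (73.3%) and lower in 0, with a median of 0.51. Prc1, which bundles the central spindle, read 1516.6, 2203.1 and 2051.2 in knockdown, against 997.2, 877.3 and 839.5 in wild type, a log2 fold change of 1.04 ± 0.14 (SE, adjusted p = 0.00026). Ccnb2, a cyclin that activates CDK1, read 1970.1, 2338.1 and 2214.8 in knockdown, against 1544.7, 1322.1 and 1373.2 in wild type, a log2 fold change of 0.63 ± 0.09 (SE, adjusted p = 0.000423). Their knockdown arrays all lie above their wild-type arrays, with knockdown A the lowest of the 3. With median centring 6 of the 15 were higher and 0 lower, with a median of 0.30. Whether the mitosis genes differ in their change from the 45 replication and G1/S genes was not tested.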

How the data were processed

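The deposited values are signals, that is intensity on a linear scale, with 1 column per array, and their mean with the extremes trimmed was 500 on every array, so the authors had scaled them. The software behind them is not given in the sources used here. A platform annotation names 1 gene for 34958 of 45101 probe sets and several for 932, with symbols updated through a RefSeq table. Values of log2(signal + 32) were quantile normalized, and probe sets with a mean below the 30th percentile and the 64 controls were left out, which leaves 31526. Groups were compared with limma 3.58.1 in R 4.3.3 (lmFit, eBayes with an intensity trend, two-sided, group as the only term), with Benjamini-Hochberg adjustment over those probe sets at an adjusted p of 0.05. Fold changes and intervals are of that scale, which understates changes of dim genes. Signals per array are as deposited and can be compared between arrays of 1 probe set only. The test was tried on simulated data. Precision is limited by the number of arrays, 3 a group, and no batch is named in the labels.

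Every one of the 45 genes is accounted for. Signals per array are given, in each role, for up to 3 called genes with the largest change and the uncalled gene with the highest mean signal, to which Cdc45 was added after its value was seen, and in each other list for up to 2 called genes with the largest change, some of these by fold change alone. The 45 genes and all lists were chosen with earlier results of these data known, so no list was tested as a set and their counts are descriptions. Alternatives were offsets of 1 and 100, values as deposited, median centring, cyclic loess, no filter, a filter at the 50th percentile, no intensity trend, the average over a gene's probe sets, a replicate block, and leaving out each array. The probe set with the highest mean was chosen anew in each, except where probe sets were averaged. Same-letter arrays did not deviate together (correlations of -0.042, -0.017 and -0.010), so letters were not used as pairs.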

Additional observations from a re-analysis of the deposited data

How the results depend on the processing

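Of the 25 genes called higher, 9 stayed called in all 16 alternatives and 16 lost the call in at least 1, while 5 genes not called were called in at least 1. With each array centred on its median, 9 were higher and 1 lower, where 8.36% and 20.8% of all genes were. The median log2 fold change was 0.11 there, and those of Mcm4 and Rrm2 were -0.041 and -0.053. The median was 0.30 with values as deposited and 0.30 with the average over a gene's probe sets (44 genes tested). Leaving out each array in turn gave 18 to 26 higher, 0 to 1 lower and a median of 0.25 to 0.32, the 1 lower being Fen1 without knockdown A. In those fits 14.5% to 20.5% of all genes were higher and 13.5% to 19.2% lower. With the replicate block 19 were higher and 0 lower, with a median of 0.26, where 16.7% of all genes were higher. Same-letter arrays did not deviate together, but the sources do not say whether the letters pair the samples. Without the intensity trend 17 were higher, where 13.9% of all genes were. The other alternatives gave 21 to 26 higher and 0 lower, where 13.3% to 24.5% of all genes were higher. Signals near background limit Tyms, and the causes of these shifts were not tested.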
